A study of Mus musculus with 36 samples.

Results

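Of the 59873 A-MSC regions with a q value past the threshold, 1942 (3.24%) were also open in P-MSCs and had no called peak in either marrow site. A-MSCs, P-MSCs, fBM-MSCs and vBM-MSCs are cultured mesenchymal stem cells (MSCs) from the adipose tissue, lung, femoral bone marrow and vertebral bone marrow of 8-week-old C57BL6/J mice. Open chromatin was measured by ATAC-seq, in which a transposase inserts sequencing adapters where DNA is accessible, and RNA by RNA-seq. The 24 ATAC-seq samples were 12 libraries, 3 per tissue, each sequenced in 2 runs, and the authors pooled them into 1 peak list per tissue, so no region has a replicate value and no test between tissues was made on the peaks. RNA-seq was available here for 11 libraries, 3 each of A-MSCs, P-MSCs and fBM-MSCs and 2 of vBM-MSCs. All groups were grown on dishes coated with collagen I, in MesenCult medium with MesenPure and a Rock inhibitor, so a group models the adherent cells that grew from its tissue under these conditions. Per the study, marrow cells were freed by crushing bone, and adipose and lung cells by mincing and collagenase digestion. The way of isolation and the split into marrow and non-marrow tissues therefore cannot be told apart. Per the study, the 4 tissues were taken from the same 3 mice, but which library came from which mouse is not stated in the sources used here. A region was a member when its strongest -log10 q (column 9) exceeded 7 in the A-MSC list, when it shared at least 1 bp with a P-MSC region past the same threshold, and when it overlapped no line of the fBM-MSC or vBM-MSC lists. The presence and absence of peaks therefore chose these regions and are not findings.

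Accessible DNA away from genes often marks enhancers, short elements that bind transcription factors and act on promoters at a distance. MSCs from different tissues share a fibroblast-like form and surface markers, but carry regulatory programmes that reflect the part of the embryo their tissue came from. GATA factors (GATA2, GATA3, GATA4 and GATA6 among them) bind short GATA sequences and pattern visceral and vascular mesenchyme. RUNX factors with their partner CBFB drive bone formation, TEAD factors act with the coactivators YAP1 and TAZ (encoded by Wwtr1), and AP-1 dimers of FOS and JUN proteins open enhancers in many cultured stromal cells.

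The 8 sequences shown here, read from the RefSeq copy of build mm10 (GRCm38) on the plus strand, reach 100 bases to either side of the strongest A-MSC summit. They were taken from the regions with the strongest peaks, from genes with many such regions and from promoters, and they show how the motif letters lie in the open DNA. Capitals mark GATA (GATAA), AP-1 (TGANTCA) and TEAD (GGAATG) letters on either strand.
Ppm1h, intron, chr10:122855273-122855473: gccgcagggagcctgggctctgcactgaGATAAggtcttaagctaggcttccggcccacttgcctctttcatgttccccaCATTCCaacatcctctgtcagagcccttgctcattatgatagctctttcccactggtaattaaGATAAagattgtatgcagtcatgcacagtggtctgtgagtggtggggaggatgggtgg
Dusp4, upstream, chr8:34753243-34753443: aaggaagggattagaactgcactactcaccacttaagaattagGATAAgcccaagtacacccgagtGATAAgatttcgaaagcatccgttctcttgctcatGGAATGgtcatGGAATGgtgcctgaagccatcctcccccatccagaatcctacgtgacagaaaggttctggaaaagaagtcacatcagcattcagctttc
Bmpr1b, intron, chr3:142049258-142049458: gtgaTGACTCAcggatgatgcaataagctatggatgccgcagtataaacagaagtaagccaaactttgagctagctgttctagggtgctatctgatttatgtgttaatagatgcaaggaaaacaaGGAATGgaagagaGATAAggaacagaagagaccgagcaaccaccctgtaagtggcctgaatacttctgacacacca
Bmper, intron, chr9:23358188-23358388: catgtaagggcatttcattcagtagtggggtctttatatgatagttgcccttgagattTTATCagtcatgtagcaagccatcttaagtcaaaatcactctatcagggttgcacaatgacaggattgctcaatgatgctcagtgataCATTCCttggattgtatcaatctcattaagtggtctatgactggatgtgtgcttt
Ext1, intron of Samd12, chr15:53541175-53541375: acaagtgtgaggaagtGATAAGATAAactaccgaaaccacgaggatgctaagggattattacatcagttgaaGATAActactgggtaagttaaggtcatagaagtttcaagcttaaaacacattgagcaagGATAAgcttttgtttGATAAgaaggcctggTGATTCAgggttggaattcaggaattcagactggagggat
Fbln2, upstream, chr6:91205844-91206044: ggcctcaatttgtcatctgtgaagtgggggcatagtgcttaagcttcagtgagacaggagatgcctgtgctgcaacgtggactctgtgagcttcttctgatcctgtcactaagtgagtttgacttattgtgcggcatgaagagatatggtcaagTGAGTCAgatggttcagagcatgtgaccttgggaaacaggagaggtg
Pdgfra, promoter, chr5:75151317-75151517: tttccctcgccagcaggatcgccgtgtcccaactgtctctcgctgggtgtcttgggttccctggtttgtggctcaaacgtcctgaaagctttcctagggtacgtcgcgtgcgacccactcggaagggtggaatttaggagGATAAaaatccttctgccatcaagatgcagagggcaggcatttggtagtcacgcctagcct
Plac8, promoter, chr5:100572242-100572442: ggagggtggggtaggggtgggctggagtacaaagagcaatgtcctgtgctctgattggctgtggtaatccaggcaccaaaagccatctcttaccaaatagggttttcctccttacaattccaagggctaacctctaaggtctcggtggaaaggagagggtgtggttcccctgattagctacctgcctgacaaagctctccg
The Ppm1h and Dusp4 windows each held 2 GATA matches, beside 1 TEAD match in the first and 2 in the second. The Bmper window held 1 GATA and 1 TEAD match. The Bmpr1b window held 1 match to each of the 3 motifs. The Ext1 window held 5 GATA matches, the most of any member, beside 1 AP-1 match. The Fbln2 window held an AP-1 match alone, and the Plac8 promoter window held none of the 3 motifs.

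The regions were modest in size and signal. Their width had a median of 414 bp (206 to 1820 bp). The fold enrichment of a peak summit in each list moved in whole steps, the same in all 4 lists and taken here as 1 read, so that the reads piled up at a summit could be counted. A value past the threshold took at least 14 reads in all 4 lists. Members had a median of 19 reads at the summit in A-MSCs (14 to 135) and 19 in P-MSCs (14 to 193). Only 182 members reached 25 reads in both tissues and 21 reached 40 in both. In A-MSCs 251 members stood at exactly 14 reads (-log10 q 7.24), and the next step down, 13 reads, gave 6.33. In P-MSCs 211 members stood at 14 reads (7.19), against 6.28 at 13 reads. A further 575 regions had 13 reads in one or both tissues and met the rest of the rule.

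The weakest line in any list had 7 reads. A region without a marrow line may still hold reads there, and absence means that no stretch was called, not that the DNA was closed. When weak marrow lines were allowed, the set grew to 6149 regions, so 4207 regions past the threshold in A-MSCs and P-MSCs had only a sub-threshold line in marrow. Of the 1942 members, 209 had a marrow line within 500 bp.

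**Figure D1:**
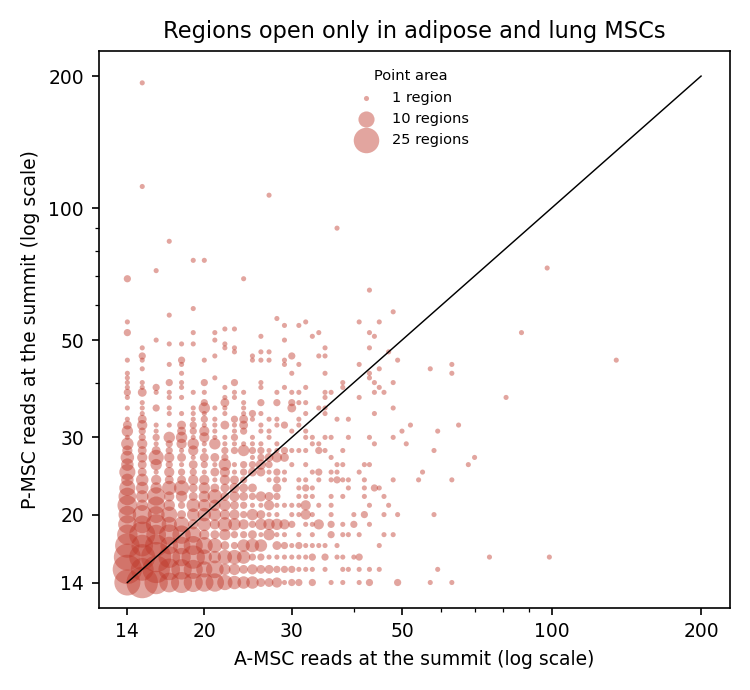
Reads at the summit in A-MSCs (x axis) and P-MSCs (y axis), both on log scales, for the 1942 regions; point area gives the number of regions at that pair of read counts and the line marks equal reads. Most regions lie near the threshold of 14 reads in both tissues, and few exceed 50.

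The summits of the 2 tissues mostly lay close together, which partly follows from the rule, since it asked for overlapping regions. The A-MSC and P-MSC summits lay a median of 35 bp apart, 65.2% within 50 bp and 87.9% within 100 bp. The reads in the 2 tissues were within 2-fold of each other in 1756 members (90.4%), at least 2-fold higher in A-MSCs in 78 and at least 2-fold higher in P-MSCs in 108. The rule asked for at least 14 reads in both tissues, near the medians of 19, so ratios within 2-fold partly follow from it. With 1 pooled peak list a tissue, these ratios have no replicate error.

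The strongest member by the lower of the 2 tissues was in an intron of Ppm1h, which encodes a protein phosphatase (chr10:122854994-122855978), with 98 reads in A-MSCs and 73 in P-MSCs. Their exact Poisson 95% intervals were 79.6 to 119 and 57.2 to 91.8 reads, and cover counting error only. An intronic region of Shb, a signalling adaptor (chr4:45474662-45475436), followed with 87 and 52 reads. An intergenic region 54.3 kb upstream of Dusp4, a MAP kinase phosphatase (chr8:34752996-34753571), had 47 reads in each tissue. The most reads in A-MSCs, 135 against 45 in P-MSCs, lay 92.3 kb from 1700128A07Rik (chr14:106393469-106394607). By contrast, a region 0.705 kb inside Fbxo5, an inhibitor of the anaphase-promoting complex (chr10:5804615-5804930), had 15 reads in A-MSCs and 112 in P-MSCs.

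These were distal elements. By the position of the strongest A-MSC summit, 43 members (2.21%, exact 95% interval 1.61 to 2.97) lay within 1 kb of a transcription start site (TSS), 48 (2.47%) in exons, 966 (49.7%) in introns and 885 (45.6%) between genes. Promoters made up 20.9% of all A-MSC regions past the threshold and 35.7% of those open in every tissue. The low share was not particular to this set, since it was 2.61% in the 1572 regions open only in both marrow sites, 3.03% in the 2806 open only in A-MSCs and 2.30% in the 2216 open only in P-MSCs. The median distance to the nearest TSS was 29.5 kb, and 360 members (18.5%) lay over 100 kb away. All 19 autosomes held members. They made up between 2.67% (chromosome 11) and 3.78% (chromosome 3) of a chromosome's A-MSC regions.

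Some members lay close together. In 199 cases the next member followed within 50 kb, and in 74 cases within 10 kb, against a median gap of 629 kb. The group with the most members was at Fbln2, which encodes the elastic fibre and basement membrane protein fibulin-2. There 6 regions stood within 40.7 kb (chr6:91205466-91246146), 2 upstream of the gene and 4 in its introns, with 16 to 48 reads in A-MSCs and 14 to 30 in P-MSCs. Other groups were 5 regions in 103 kb in and beside 6030407O03Rik on chromosome 1, 5 regions in 108 kb around Zbtb46 on chromosome 2, and 4 regions in 30.4 kb upstream of Wdr11 on chromosome 7. The 1942 regions had 1660 different nearest genes, of which 223 had at least 2 regions and 43 at least 3.

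GATA letters stood out at the summits. Within 100 bp of the summit, GATAA was found on either strand in 752 members (38.7%, exact 95% interval 36.5 to 40.9) and in 20.5% of all A-MSC regions past the threshold, a set that includes the members. Promoters have their own base content, so the shares outside promoters are the nearer comparison. There 38.8% of members held GATAA, against 23.7% of all A-MSC regions, 18% of those open in every tissue and 15.6% of those open only in both marrow sites. Regions open only in A-MSCs had 40.1%, within the members' counting error, and those open only in P-MSCs 23.6%. At least 2 matches were present in 160 members (8.24%) and at least 3 in 15. The G+C content of the windows outside promoters was 45.1% in members, 47.9% in all A-MSC regions and 46.4% in the marrow-only regions. The part of base content in the shares was not tested.

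The GATA share moved with the strength of the region. It was 34.9% in the 756 members whose weaker tissue had 14 or 15 reads, 37.4% at 16 to 18 reads, 41.0% at 19 to 24 reads and 53.3% in the 182 members with 25 reads or more. It was 61.5% (48 of 78) where A-MSC reads were at least 2-fold higher, 38.2% where the tissues were within 2-fold and 31.5% (34 of 108) where P-MSC reads were at least 2-fold higher. The AP-1 share over the same 4 read classes stayed between 40.2% and 43.4%.

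GATA letters were densest near the summit in members. In 20 bp bins there were 5.46 GATAA matches per 100 members at the summit, against 3.91 and 3.60 at 240 bp to either side. Among all A-MSC regions the values were 2.46 at the summit and 2.64 and 2.75 at 240 bp, and among marrow-only regions 1.59, 2.04 and 2.74. The members' level at 240 bp was thus already above that of both other sets.

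**Figure D2:**
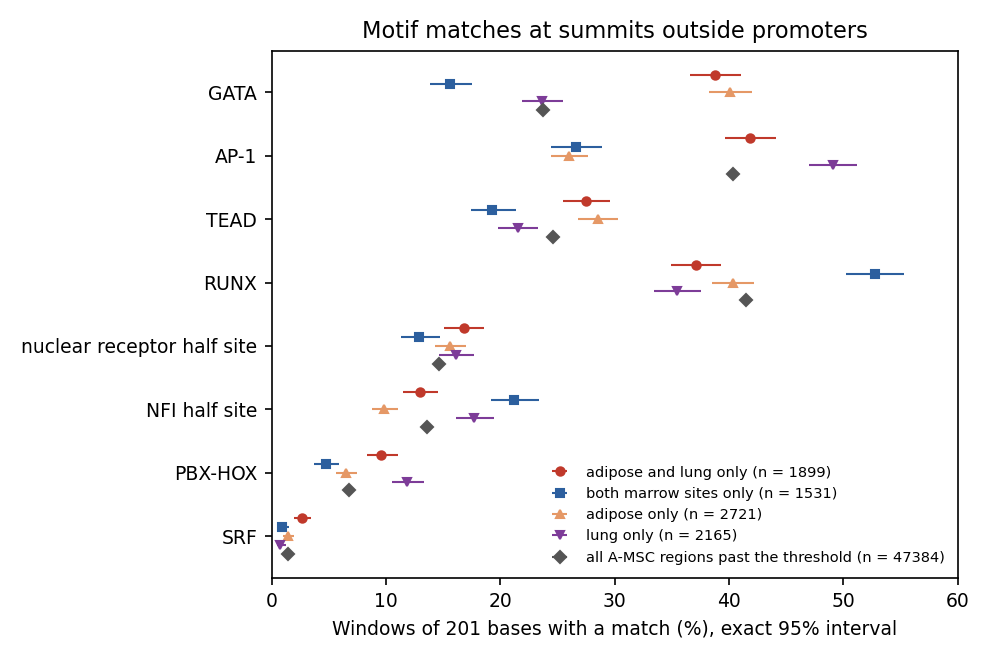
Share of summit windows outside promoters with a match to each of 8 motifs (x axis, percent), for the 1899 regions open only in adipose and lung and 4 other sets of regions; bars are exact binomial 95% intervals. For GATA, the adipose and lung regions (38.8%) and the adipose-only regions (40.1%) lie to the right of the other 3 sets (15.6% to 23.7%).

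AP-1 letters (TGANTCA, the same on both strands but for N) were the most frequent of those counted, in 41.3% of members. Outside promoters the share was 41.8%, against 40.3% of all A-MSC regions, 47.3% of those open in every tissue, 49.1% of those open only in P-MSCs, 26.6% of the marrow-only regions and 26.0% of those open only in A-MSCs. The share in members was thus close to that of A-MSC regions at large. GATA and AP-1 letters were both present in 323 members (16.6%), GATA alone in 429, AP-1 alone in 479 and neither in 711 (36.6%).

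RUNX letters (TGNGGT) were most frequent in the marrow-only regions. They were in 37.1% of members outside promoters, in 41.5% of all A-MSC regions and in 52.8% of the marrow-only regions, and in 40.3% and 35.4% of those open only in A-MSCs or only in P-MSCs. The marrow-only regions had 8.21 RUNX matches per 100 windows at the summit against 3.75 and 4.01 at 240 bp, whereas members had 5.36 against 4.07 and 4.27. TEAD letters (GGAATG) were in 27.5% of members, 24.6% of all A-MSC regions and 19.3% of marrow-only regions, and in 28.5% and 21.5% of those open only in A-MSCs or only in P-MSCs. Letters of a PBX-HOX pair (TGATTNAT) were in 9.58% of members, 6.79% of all A-MSC regions and 4.70% of marrow-only regions, and in 6.47% and 11.8% of those open only in A-MSCs or only in P-MSCs. The SRF motif, the serum response element of smooth muscle and growth factor genes, was rare but was in 2.63% of members, 1.44% of all A-MSC regions and 0.914% of marrow-only regions, and in 1.43% and 0.739% of those open only in A-MSCs or only in P-MSCs. NFI letters (TTGGCA) were in 13% of members, 13.6% of all A-MSC regions and 21.2% of marrow-only regions, and in 9.81% and 17.7% of those open only in A-MSCs or only in P-MSCs. The letters of different motifs can overlap, as TGATTNAT and TGANTCA do in their first bases. A match to such short letters is a description of the sequence and not a bound site, and these sets were called on pooled samples.

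**Figure D3:**
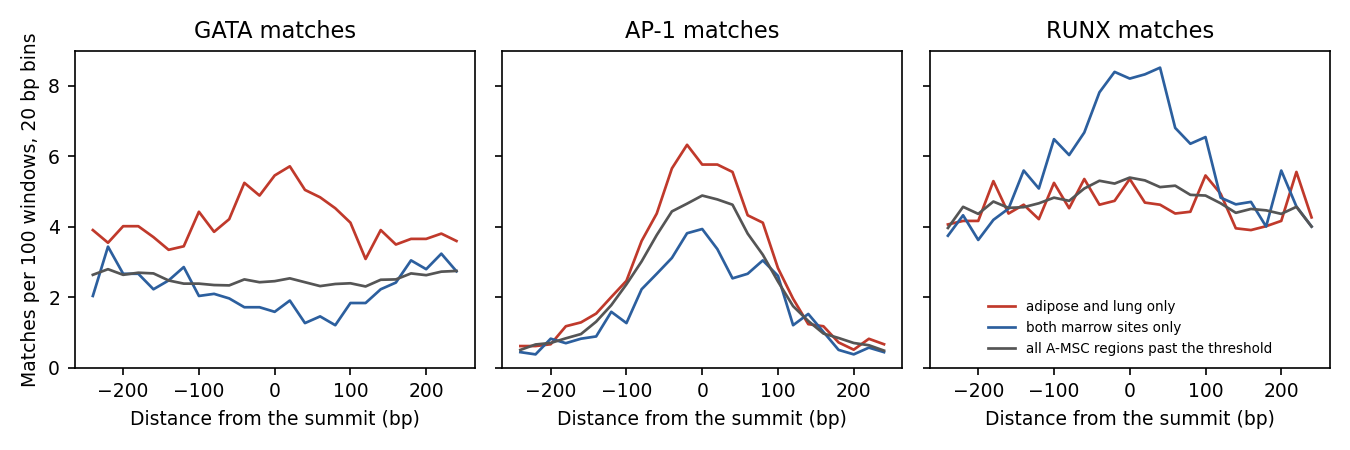
Matches per 100 windows in 20 bp bins (y axis) against distance from the summit in bp (x axis) for GATA, AP-1 and RUNX letters, in the adipose and lung regions, the marrow-only regions and all A-MSC regions past the threshold. GATA matches rise to 5.46 at the summit of the adipose and lung regions and stay at or under 3.44 in the other sets, while RUNX matches reach 8.52 in the marrow-only regions and at most 5.56 in the adipose and lung regions.

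The factors that read these letters were then followed in the RNA-seq data, which the choice of regions did not use. Levels are in TPM, a share of each library's transcripts that is scaled for transcript length, and differences are log2 fold changes ± standard error of the mean of A-MSCs and P-MSCs over the mean of both marrow sites, from the quasi-likelihood test of edgeR, with p-values adjusted over 12509 genes by the method of Benjamini and Hochberg. In this test 22.4% of all genes were called higher and 24.8% lower in non-marrow MSCs at an adjusted p under 0.05. Since libraries could not be assigned to mice, the fit did not pair them, and the p-values measure the spread between libraries. A gene with no library at 1 CPM in marrow, or none in the non-marrow tissues, passed the filter on low counts through 1 side only, which favours a difference. Such genes are left out of the counts on gene lists or named there as such, and without them 22.8% of 11818 genes were higher and 23.7% lower. The averages over both marrow sites and over both non-marrow tissues can each rest on 1 of them. Of 55 named genes called on that average and measured on both sides, 18 were called the same way in each of the 4 pairs of a non-marrow and a marrow tissue. Another 12 were called in no pair with vBM-MSCs (Clca3a1, Lpl, Mgrn1, Wnt5b, Runx2, Tead1, Tead3, Twist2, Tcf4, Nr2f2, Nr4a1 and F3), and 5 in no pair with fBM-MSCs (Ext1, Chn2, Dag1, Junb and Nfix). The other 20 were called in a pair with each marrow site but not in all 4 pairs. They were Shb, Mbnl1, Gpr39, Btbd3, Mrap, Pdgfra, Nf2, Met, Tns1, Gata2, Cbfb, Wwtr1, Tead2, Tead4, Osr1, Klf5, Sparc, Lmod1, Lamb1 and Vcam1. Of the same 55, 7 were called in no pair with A-MSCs (Shb, Mgrn1, Cbfb, Wwtr1, Sparc, Lamb1 and Vcam1) and 3 in no pair with P-MSCs (Gpr39, Mrap and Lpl). In bulk RNA, more cells of a type and more RNA per cell cannot be told apart.

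Of the GATA factors, Gata2, Gata3 and Gata6 were called higher in the non-marrow MSCs. Gata2, known from blood and stromal progenitors, had 14.8, 20.6 and 21.6 TPM in A-MSCs, 19.4, 18.9 and 17.0 in P-MSCs, 4.77, 5.01 and 2.42 in fBM-MSCs and 6.74 and 13.9 in vBM-MSCs. The non-marrow and marrow values did not overlap, though 14.8 TPM in A-MSCs stood close to 13.9 in vBM-MSCs. The difference was 1.55 ± 0.22 (edgeR adjusted p = 0.00015). Between P-MSCs and vBM-MSCs, Gata2 was not called (0.78 ± 0.32, edgeR adjusted p = 0.072). Gata6, a factor of visceral mesoderm and itself the nearest gene of a member 5.88 kb upstream of its TSS, in an intron of Gata6os, had 3.94, 4.51 and 4.78 TPM in A-MSCs, 2.67, 3.81 and 4.19 in P-MSCs, 1.27, 1.29 and 0.04 in fBM-MSCs and 0.13 and 0.23 in vBM-MSCs (3.32 ± 0.62, edgeR adjusted p = 0.001). Gata3 averaged 4.24 and 2.78 TPM in A-MSCs and P-MSCs and 1.46 and 1.29 in fBM-MSCs and vBM-MSCs (1.33 ± 0.21, edgeR adjusted p = 0.00033). Gata4 was low everywhere, at 0.16 to 1.91 TPM in the 6 non-marrow libraries and at most 0.05 TPM in the 5 marrow libraries, so that it passed the filter only through the non-marrow libraries and is not counted here. Gata1 and Gata5 did not pass the filter.

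Genes that mark other cell types were measured in the same libraries. Of 8 tested genes of mesothelium, the lining of the body cavities, 5 were higher in non-marrow MSCs (Msln, Upk3b, Krt8, Krt19 and Upk1b), of which Msln, Upk3b and Krt8 passed the filter only through the non-marrow libraries. Their list of 9 measured genes summed to 121 to 171 TPM in A-MSCs, 76.2 to 99.1 in P-MSCs and 2.32 to 23.9 in the marrow libraries. In P-MSCs nearly all of that came from Krt19 and Upk1b, and Wt1, a defining mesothelial factor, was at 0 in all 3 P-MSC and all 5 marrow libraries but at 10.6 to 14.9 TPM in A-MSCs. Of 6 tested endothelial genes, Cdh5, Kdr and Emcn were called higher, all 3 having passed the filter only through the non-marrow libraries, and none was lower. The list summed to 9.57 to 64.5 TPM in A-MSCs, 8.0 to 15.9 in P-MSCs and 4.07 to 11 in marrow, with Vwf at or under 0.05 TPM in every library. Of 3 tested epithelial genes, Krt18 and Krt19 were called higher and none lower, Krt18 having passed the filter only through the non-marrow libraries. The list summed to 34.9 to 58.0, 52.4 to 61.3 and 2.18 to 12.9 TPM, with Krt5, Sftpc, Nkx2-1 and Elf3 at 0 throughout. Of 5 tested macrophage genes, Csf1r was higher and Lyz2 and Fcer1g were lower, Fcer1g having passed the filter only through the marrow libraries. The list summed to 24.7 to 71.9 TPM in marrow, 19.1 to 27.7 in A-MSCs and 15.1 to 17.1 in P-MSCs, and Ptprc, the pan-leukocyte marker, stayed at or under 0.35 TPM. Erythroid genes summed to at most 1.67 TPM. The part of such cells in the regions or in the RNA was not tested. Of 11 tested MSC markers, 7 were lower in non-marrow MSCs (Itgb1, Ly6a, Eng, Nt5e, Pdgfrb, Col1a1 and Cd34) and 2 higher (Vcam1 and Pdgfra). Itgb1 (466 to 1051 TPM) and Cd44 (229 to 720 TPM) were high in every library, while Nt5e was at or under 0.86 TPM in the non-marrow libraries.

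Of the RUNX pathway genes, Runx2 and Cbfb were lower in the mean of the non-marrow MSCs, but neither was called lower in A-MSCs than in vBM-MSCs. Runx2, the master factor of bone formation, had 2.40, 4.23 and 3.04 TPM in A-MSCs, 2.30, 2.96 and 2.94 in P-MSCs, 5.40, 7.89 and 12.5 in fBM-MSCs and 2.55 and 4.54 in vBM-MSCs. The vBM-MSC values overlapped those of the non-marrow cells, and the difference over both marrow sites was -0.84 ± 0.23 (edgeR adjusted p = 0.0094). Cbfb fell by 0.50 ± 0.13 on the log2 scale (edgeR adjusted p = 0.0075), a difference called in P-MSCs (-0.68 ± 0.17 against fBM-MSCs and -0.61 ± 0.19 against vBM-MSCs) but not in A-MSCs (-0.40 ± 0.17 and -0.32 ± 0.19). Runx3 was at or under 0.10 TPM in the non-marrow libraries and at 0.04 to 7.67 TPM in marrow, so that it passed the filter only through marrow libraries and is not counted here. A member lay 72.8 kb upstream of it. Runx1 differed by 0.22 ± 0.12 over both non-marrow tissues (edgeR adjusted p = 0.16). In A-MSCs alone it was higher than in fBM-MSCs (0.78 ± 0.16, edgeR adjusted p = 0.0024), vBM-MSCs (0.75 ± 0.18, edgeR adjusted p = 0.011) and P-MSCs (1.10 ± 0.16, edgeR adjusted p = 0.00058).

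Each of the 4 TEAD genes was higher in the mean of A-MSCs and P-MSCs than in the mean of both marrow sites, but none was called between A-MSCs and vBM-MSCs. Tead2 had 12.3, 17.3 and 13.6 TPM in A-MSCs, 27.7, 28.2 and 25.9 in P-MSCs, 6.18, 9.77 and 7.24 in fBM-MSCs and 12.4 and 13.8 in vBM-MSCs (0.99 ± 0.13, edgeR adjusted p = 0.0001). Its P-MSC values stood above all others, and the A-MSC and vBM-MSC values overlapped. Tead1 (0.69 ± 0.14), Tead3 (0.64 ± 0.21) and Tead4 (1.37 ± 0.28) were also called over both marrow sites. Between A-MSCs and vBM-MSCs the differences were 0.44 ± 0.21 for Tead1, 0.26 ± 0.19 for Tead2, 0.26 ± 0.31 for Tead3 and 0.09 ± 0.41 for Tead4. Between P-MSCs and vBM-MSCs, Tead1 (0.19 ± 0.21) and Tead3 (0.15 ± 0.31) were not called either. The coactivator gene Wwtr1 fell by 0.35 ± 0.10 on the log2 scale, with calls in P-MSCs (-0.55 ± 0.14 against fBM-MSCs and -0.50 ± 0.15 against vBM-MSCs) and none in A-MSCs (-0.20 ± 0.14 and -0.15 ± 0.15). Of 8 tested AP-1 genes none was higher, and Junb (-0.44 ± 0.17) and Jund (-0.91 ± 0.18) were lower. Without vBM-MSC replicate 2 the differences of Tead3 (0.45) and Junb (-0.32) were no longer called, and without vBM-MSC replicate 1 that of Wwtr1 (-0.28). Tead3 also lost its call without A-MSC replicate 2 (0.54) or P-MSC replicate 3 (0.63), and Junb without A-MSC replicate 1 (-0.32), any P-MSC replicate (-0.44 to -0.42) or fBM-MSC replicate 1 (-0.34), and with limma on log2(TPM + 1) (-0.43). Of the NFI genes, Nfix fell by 0.36 ± 0.11 (edgeR adjusted p = 0.014), and was not called without vBM-MSC replicate 1 (-0.31). Of 25 Hox genes measured on both sides, 9 of the Hoxa and Hoxb clusters were higher and 11 of the Hoxa, Hoxc and Hoxd clusters lower, and no member had a Hox gene as its nearest.

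The genes nearest to the members were compared next. Of 1660, 1550 were in the RNA-seq tables and 1089 passed the filter. Nmur2 and 6030407O03Rik, with 5 members each, did not pass it and were listed at 0 in all 11 libraries. Of the 1089, 311 (28.6%) were higher and 233 (21.4%) lower in non-marrow MSCs, and the median log2 difference was 0.048. Of these genes 22 had passed the filter only through the non-marrow and 27 only through the marrow libraries, and without them 28.7% were higher and 21.2% lower. With 1 library left out the median ranged from 0.032 (without P-MSC replicate 2) to 0.121 (without vBM-MSC replicate 2), and was 0.085 without fBM-MSC replicate 1. Among all 12509 genes the shares were 22.4% and 24.8% and the median -0.029. Among the 7946 genes nearest to any A-MSC region outside promoters they were 21.5% and 26.4%, with a median of -0.051. The genes nearest to marrow-only regions had 14.6% higher and 39.7% lower, with a median of -0.347. A higher level in each of the 4 pairs of a non-marrow and a marrow tissue was found for 77 of the 1089 (7.07%), against a background of 6.0% of all genes.

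The shares moved with the number of members at a gene, counted here over genes with a library at 1 CPM on both sides. With 1 member, 231 of 880 genes (26.2%) were higher and 195 (22.2%) lower. With 2 members, 52 of 131 (39.7%) were higher and 24 (18.3%) lower. With 3 or more, 15 of 29 (51.7%) were higher and 2 (6.90%), Ext1 and Wnt5b, lower, and the median difference was 0.622. Nkain3, with 3 members, is left out, since it passed the filter only through the A-MSC libraries. The count of genes higher in each of the 4 pairs of tissues, over all tested genes, did not rise at 2 members. It was 64 of 925 (6.92%) with 1 member and 7 of 134 (5.22%) with 2, against 6.0% of all genes. With 3 or more members, Nkain3 included, it was 6 of 30. By distance, the share higher differed in the nearest and farthest classes only. Of 26 genes with a member within 1 kb of the TSS, 14 were higher and 4 lower (median 0.748). Of genes with a member over 100 kb away 40 (23.7%) were higher and 41 (24.3%) lower (median -0.094), near the 22.8% and 23.7% of all genes. Between these, counted over all tested genes, 30.2% were higher at 1 to 10 kb, 31.1% at 10 to 50 kb and 30.4% at 50 to 100 kb. The shares lower in these 3 classes were 16.1%, 21.5% and 24.5%. Genes of the members with at least 25 reads in both tissues had 42 of 119 (35.3%) higher and 17 (14.3%) lower. Genes with a GATA match in a member had 147 of 449 (32.7%) higher, and the others 151 of 591 (25.5%). Counted as higher in each of the 4 pairs, over all tested genes, the order turned, with 30 of 467 (6.42%) and 47 of 622 (7.56%).

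**Figure D4:**
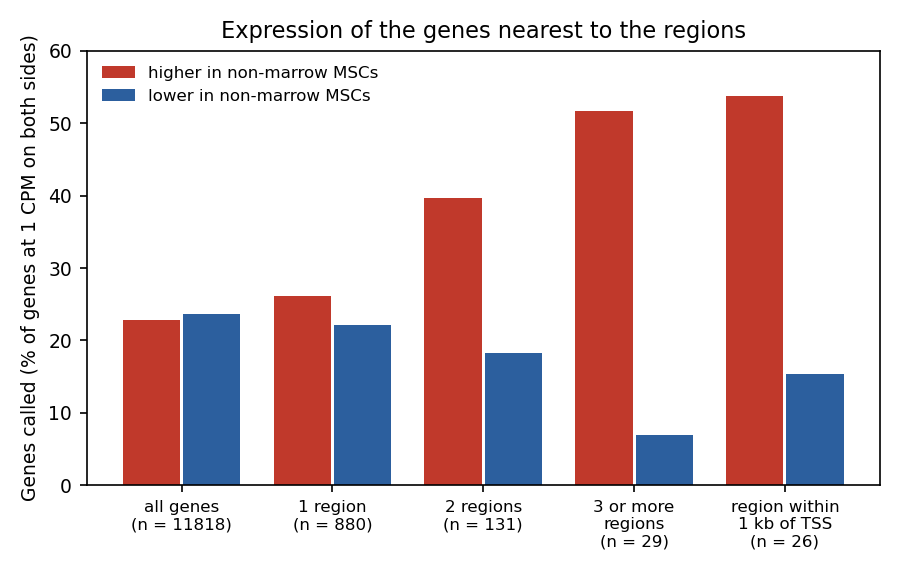
Percent of genes with a library at 1 CPM on both sides that were called higher (red) or lower (blue) in non-marrow than in marrow MSCs (y axis), for all genes and for genes grouped by the number of nearest regions or by a region within 1 kb of their TSS; bars start at 0. The share called higher goes from 22.8% of all genes to 51.7% of the 29 genes with 3 or more regions.

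Single genes with 3 or more members are described next. Bmper, a secreted regulator of BMP ligands, had 4 members, 2 in its introns and 2 upstream, and 79.0, 67.4 and 66.9 TPM in A-MSCs, 35.0, 40.8 and 39.8 in P-MSCs, 12.5, 10.4 and 7.16 in fBM-MSCs and 14.2 and 17.6 in vBM-MSCs. All 6 non-marrow values exceeded all 5 marrow values, and the difference was 2.05 ± 0.14 (edgeR adjusted p = 6.9e-07). Bmpr1b, a BMP receptor with 4 members in introns (3 of its own and 1 of Pdlim5), averaged 4.69 TPM in A-MSCs, 5.20 in P-MSCs, 1.97 in fBM-MSCs and 2.37 in vBM-MSCs (1.18 ± 0.19, edgeR adjusted p = 0.00043). Met, the receptor of hepatocyte growth factor, had 3 members and rose by 1.53 ± 0.23 (edgeR adjusted p = 0.0002). Between A-MSCs and vBM-MSCs, Met was not called (0.84 ± 0.33).

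Adam12, a membrane metalloprotease, had 3 members, all within its introns, and 7.24 and 10.2 TPM in A-MSCs and P-MSCs against 0.730 and 2.35 in fBM-MSCs and vBM-MSCs (2.69 ± 0.21, edgeR adjusted p = 1.9e-06). Slc43a3, a purine base transporter, had 3 intronic members 1.87, 5.34 and 15.8 kb into the gene and rose by 1.95 ± 0.14 (edgeR adjusted p = 1.2e-06). Tns1, the focal adhesion protein tensin, had 3 intronic members with 21 to 48 reads in A-MSCs and rose by 1.43 ± 0.29 (edgeR adjusted p = 0.0016). Btbd3, a BTB domain protein with 5 members, averaged 27.5 TPM in A-MSCs, 16.4 in P-MSCs, 9.29 in fBM-MSCs and 11.2 in vBM-MSCs (1.07 ± 0.12, edgeR adjusted p = 2.9e-05). Between P-MSCs and vBM-MSCs, neither Tns1 (0.79 ± 0.42) nor Btbd3 (0.48 ± 0.18) was called.

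Several genes with many members were not called, or were lower. Fbln2, with the most members, averaged 327 TPM in A-MSCs, 820 in P-MSCs, 277 in fBM-MSCs and 311 in vBM-MSCs, and its difference of 0.82 ± 0.38 did not pass the test (edgeR adjusted p = 0.097). Nrp1, a co-receptor of semaphorins and VEGF, had 4 members and -0.12 ± 0.13 (edgeR adjusted p = 0.46). Wdr11 had 4 members and -0.15 ± 0.13, and Bckdhb had 4 and -0.42 ± 0.36. Ext1, a heparan sulphate polymerase, had 4 members, 2 of them in its own introns and 2 in those of its neighbour Samd12, and fell by 0.44 ± 0.13 (edgeR adjusted p = 0.017). Wnt5b, a secreted WNT ligand, had 3 members and fell by 1.94 ± 0.55 (edgeR adjusted p = 0.012). Without vBM-MSC replicate 2 neither Ext1 (-0.38) nor Wnt5b (-1.63) was called and the sign of Nrp1 turned (0.03), while Fbln2 was called without fBM-MSC replicate 3 (0.58).

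Of the genes nearest to the strongest members, Dusp4 had 57.0, 76.5 and 81.9 TPM in A-MSCs, 81.4, 89.3 and 81.0 in P-MSCs, 32.5, 25.3 and 11.1 in fBM-MSCs and 37.4 and 35.4 in vBM-MSCs (1.42 ± 0.23, edgeR adjusted p = 0.0004), with no overlap between non-marrow and marrow libraries. Shb averaged 5.24 TPM in P-MSCs against 1.85, 1.59 and 1.20 in A-MSCs, fBM-MSCs and vBM-MSCs (1.18 ± 0.27, edgeR adjusted p = 0.0042), while its strongest member had more reads in A-MSCs (87) than in P-MSCs (52). Gpr39, a zinc-sensing receptor with a member 23.6 kb upstream, averaged 77.8 TPM in A-MSCs and 19.9, 19.8 and 10.3 in P-MSCs, fBM-MSCs and vBM-MSCs (1.46 ± 0.36, edgeR adjusted p = 0.0062). Ppm1h itself showed no call (-0.24 ± 0.15, edgeR adjusted p = 0.22), and Mbnl1, a splicing regulator with one member in an intron 106 kb from its TSS and the stronger one 249 kb away between genes, fell by 0.65 ± 0.10 (edgeR adjusted p = 0.00026). The genes nearest to 4 others, 1700128A07Rik, Nckap5, 1700085C21Rik and 4930448I06Rik, were at or near 0 TPM in every tissue.

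Among genes with a member at their promoter, the largest rise was that of Plac8, with 318 and 387 TPM on average in A-MSCs and P-MSCs against 0.573 and 7.54 in fBM-MSCs and vBM-MSCs (7.33 ± 0.58, edgeR adjusted p = 2.2e-06). Its member (chr5:100572203-100572455) had only 15 and 16 reads. Fbxo5 had 8.49 and 35.6 TPM in A-MSCs and P-MSCs against 2.20 and 0.930 (3.61 ± 0.19, edgeR adjusted p = 1.6e-07), and its P-MSC excess in RNA ran the same way as the 15 and 112 reads at its member. 1700009N14Rik rose by 3.40 ± 0.26. Clca3a1 was higher over both marrow sites (3.41 ± 0.61) but was not called against vBM-MSCs in A-MSCs (1.27 ± 0.80) or P-MSCs (2.12 ± 0.83). Chn2 was likewise higher over both (2.85 ± 0.68) but was not called against fBM-MSCs in A-MSCs (1.06 ± 0.80) or P-MSCs (1.98 ± 0.81), and 2 A-MSC libraries (0.42 and 0.44 TPM) lay within the fBM-MSC range of 0.18 to 0.51 TPM. Pdgfra, a receptor that marks fibroblasts and MSCs, had 7.93, 6.37 and 7.72 TPM in A-MSCs, 5.74 to 7.42 in P-MSCs, 0.27, 0.76 and 0.75 in fBM-MSCs and 1.81 and 4.48 in vBM-MSCs (2.33 ± 0.26, edgeR adjusted p = 2.9e-05). Between P-MSCs and vBM-MSCs, Pdgfra was not called (0.99 ± 0.37). Its members lay 0.834 kb upstream of the TSS and, in an intron, 35.1 kb downstream of the TSS. Lpl, the lipase of fat uptake, had members at the TSS and 2.72 kb into the gene, each with 14 reads in P-MSCs, and averaged 17.0, 5.59, 1.44 and 2.91 TPM in A-MSCs, P-MSCs, fBM-MSCs and vBM-MSCs (2.26 ± 0.71, edgeR adjusted p = 0.021). Mrap, which carries melanocortin receptors to the cell surface, had 14.1 to 16.4 TPM in A-MSCs and at most 1.99 in the other 8 libraries (2.82 ± 0.72, edgeR adjusted p = 0.007). The 4 largest falls were those of 2810433D01Rik (-2.13 ± 0.51), which passed the filter only through the marrow libraries, Nf2 (-0.64 ± 0.10), Mgrn1 (-0.36 ± 0.11) and Dag1 (-0.36 ± 0.08). Mgrn1 was not called without vBM-MSC replicate 2 (-0.25) or P-MSC replicate 3 (-0.32).

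Regulators of visceral mesenchyme were then examined. Of 30 genes on a list of lung and visceral mesenchyme, 25 were tested and 21 were measured on both sides, of which 8 were higher and 5 lower in non-marrow MSCs. Of these 21, 6 were the nearest gene of a member, and these 6 (Meis1, Gata6, Pdgfra, Aldh1a2, Osr1 and Nr2f2) were higher. A further pair nearest to a member is left out of the count, Tcf21, which passed the filter only through the non-marrow libraries, and Rarb, which passed only through marrow libraries and was not called. Aldh1a2, which makes retinoic acid, had 23.6, 21.4 and 23.4 TPM in A-MSCs, 20.4, 17.3 and 21.2 in P-MSCs, 3.70, 4.84 and 2.51 in fBM-MSCs and 0.73 and 1.01 in vBM-MSCs (3.56 ± 0.18, edgeR adjusted p = 1.3e-07), with a member 104 kb away. Meis1, a homeodomain partner of HOX and PBX proteins, had 5.86 to 13.4 TPM in the non-marrow and 0.60 to 4.04 in the marrow libraries (2.49 ± 0.28, edgeR adjusted p = 2.8e-05). Nr2f2 (COUP-TFII), a nuclear receptor of mesenchyme and veins with 2 members, averaged 13.4, 18.6, 3.90 and 9.59 TPM in A-MSCs, P-MSCs, fBM-MSCs and vBM-MSCs (1.37 ± 0.24, edgeR adjusted p = 0.00059). Osr1, a factor of lateral and intermediate mesoderm, averaged 48.4 TPM in P-MSCs and 6.22, 2.26 and 15.5 in A-MSCs, fBM-MSCs and vBM-MSCs, so that the vBM-MSC level lay above the A-MSC one. Tcf21, a bHLH factor of visceral and fat-associated fibroblasts with a member 4.22 kb from its TSS, had 4.20, 4.85 and 3.82 TPM in A-MSCs, 1.44, 0.24 and 0.90 in P-MSCs and was listed at 0 in all 5 marrow libraries.

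**Figure D5:**
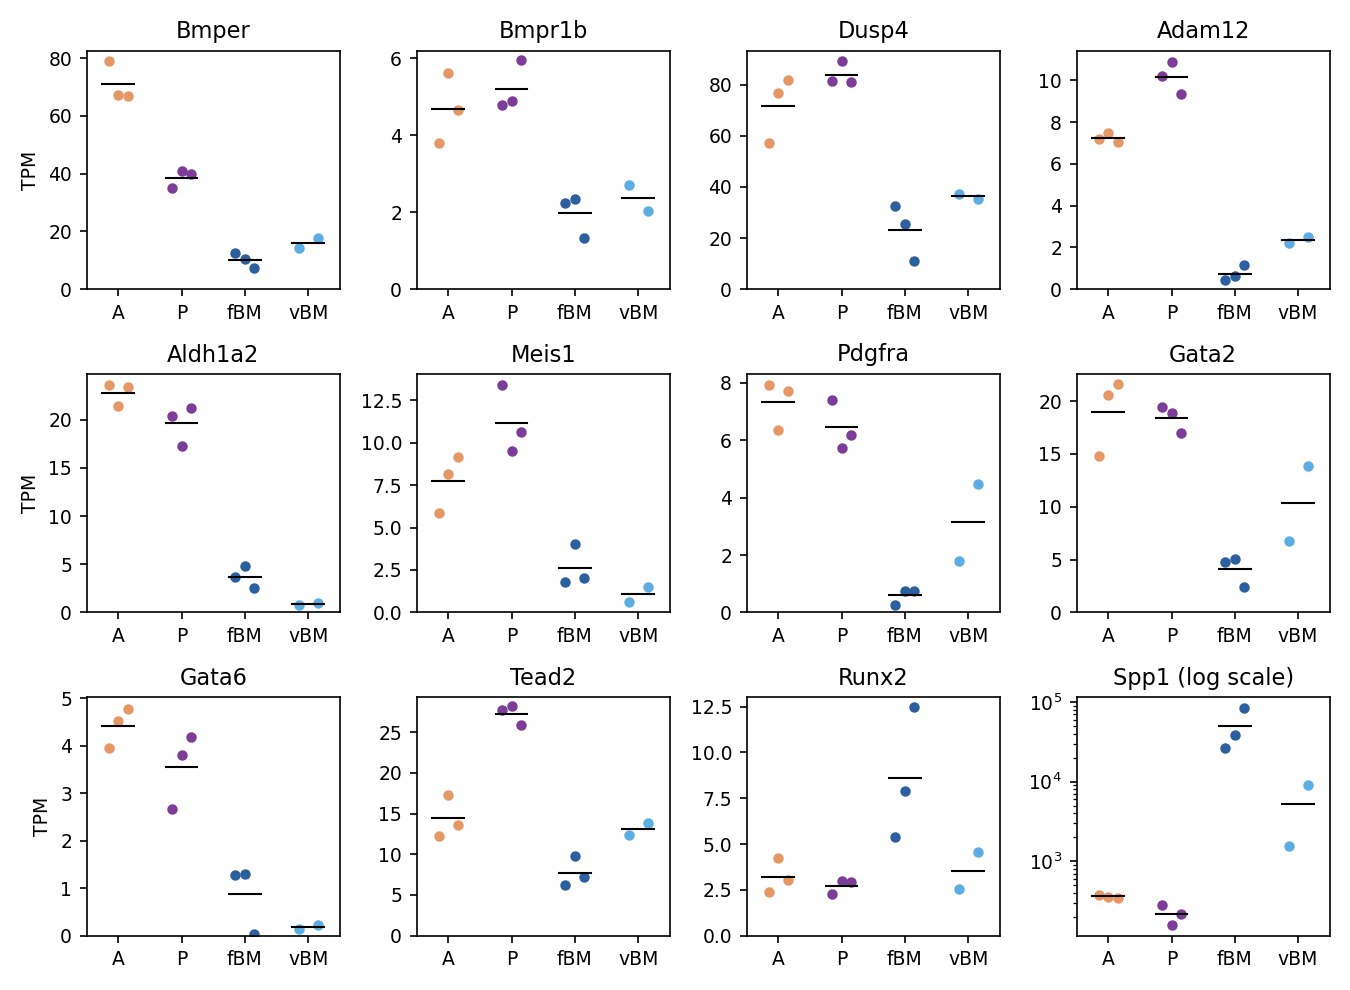
TPM in each RNA-seq library (points, y axis) with the group mean (line) for 12 genes in A-MSCs, P-MSCs, fBM-MSCs (3 libraries each) and vBM-MSCs (2 libraries); each panel has its own scale from 0, and Spp1 is on a log scale. Bmper, Aldh1a2, Meis1 and Gata6 separate both non-marrow groups from both marrow groups, while Runx2 and Spp1 are highest in fBM-MSCs.

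Of 15 genes of smooth muscle and myofibroblasts, 11 were higher and 1, Nox4, lower in non-marrow MSCs. The list's summed level was 15611 to 16050 TPM in A-MSCs, 5668 to 6636 in P-MSCs, 1534 to 2277 in fBM-MSCs and 8150 to 9970 in vBM-MSCs, so P-MSCs lay below vBM-MSCs. Lmod1, an actin nucleator of smooth muscle with an intronic member 17.0 kb from its TSS, averaged 11.1, 6.88, 0.520 and 4.64 TPM (2.46 ± 0.19, edgeR adjusted p = 1.8e-06), and Smtn, smoothelin, 48.3, 48.8, 13.2 and 31.5 TPM (1.25 ± 0.09, edgeR adjusted p = 1.7e-06). Between P-MSCs and vBM-MSCs, Lmod1 was not called (0.47 ± 0.26). Of 27 tested genes of elastic fibres and basement membrane, 9 were higher and 4 lower, and 9 were nearest to a member, of which only Lamb1 and Nid1 were called, both higher, Lamb1 in P-MSCs but in no pair with A-MSCs. Of 28 adipose genes measured on both sides, 4 were higher and 12 lower, and 6 were nearest to a member, of which F3, Pdgfra, Lpl and Klf5 were higher and Klf4 and En1 had no call. F3, tissue factor, averaged 942 TPM in A-MSCs and 523 in P-MSCs but also 721 in vBM-MSCs, against 31.0 in fBM-MSCs. Klf5 averaged 8.58, 9.20, 3.51 and 1.98 TPM (1.77 ± 0.39, edgeR adjusted p = 0.0032), but was not called between P-MSCs and fBM-MSCs (1.28 ± 0.50). Kdr, a VEGF receptor on the endothelial list with 2 members, was at 2.33 to 2.84 TPM in P-MSCs, 0.16 to 0.55 in A-MSCs and at or under 0.23 in marrow.

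Members also lay near genes of the bone lineage. Of 30 tested genes of marrow stroma and osteoblasts, 10 passed the filter only through marrow libraries. Of the other 20, none was higher and 13 were lower in non-marrow MSCs. Of 4 nearest to a member, 3 were lower. Spp1, which encodes osteopontin, had a member 35.5 kb upstream with 21 reads in A-MSCs and 14 in P-MSCs, yet averaged 363 and 221 TPM there against 49576 in fBM-MSCs and 5300 in vBM-MSCs (-5.80 ± 0.45, edgeR adjusted p = 1.8e-06). Tnfrsf11b, the decoy receptor osteoprotegerin, fell by 1.67 ± 0.14 (edgeR adjusted p = 3.2e-06) and Sparc, osteonectin, by 0.60 ± 0.12 (edgeR adjusted p = 0.0016). The difference of Sparc lay in P-MSCs, at 1291 TPM on average, while A-MSCs (2202 TPM) were not called against fBM-MSCs (2560 TPM) or vBM-MSCs (2525 TPM). Other regulators nearest to a member also differed in either direction. Twist2 (1.65 ± 0.46) and Nr4a1 (0.81 ± 0.12) were higher over both marrow sites. Against vBM-MSCs, Twist2 was not called in A-MSCs (edgeR adjusted p = 0.3) or P-MSCs (0.30 ± 0.65, edgeR adjusted p = 0.75), and its 28.5 TPM in vBM-MSC replicate 1 exceeded P-MSC values of 27.0 and 27.8. The vBM-MSC mean of Nr4a1, 33.7 TPM, exceeded those of A-MSCs (27.8) and P-MSCs (26.0). Nr1d2 (-0.89 ± 0.14) and Tcf4 (-0.51 ± 0.14) were lower, although Tcf4 was higher in P-MSCs than in vBM-MSCs (0.78 ± 0.22). The calls of Twist2 (1.44) and Tcf4 (-0.36) were lost without vBM-MSC replicate 2.

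The genes nearest to the members were also compared between A-MSCs and P-MSCs, and the shares called were near those of all genes. Of the 1089, 203 (18.6%) were higher and 191 (17.5%) lower in A-MSCs than in P-MSCs, against 16.0% and 14.9% of all genes and 17.4% and 14.9% of the genes nearest to any A-MSC region outside promoters. With limma on log2(TPM + 1) the split turned to 137 higher and 272 lower. On the TPM scale the median A-MSC minus P-MSC difference of all genes was -0.157, against -0.006 with the TMM scaling of edgeR. The counts fell when any A-MSC or P-MSC library was left out, to 131 to 160 higher and 127 to 152 lower. Without a marrow library they were 204 to 238 higher and 183 to 211 lower. Of the 311 genes higher in non-marrow MSCs, 57 were also higher in A-MSCs than in P-MSCs, 81 were lower and 173 had no call between the 2 tissues. The same split was not counted for all 2805 genes higher in non-marrow MSCs, so it is not read as a trait of these genes. Genes nearest to regions open only in A-MSCs had 23.3% higher and 12.1% lower in A-MSCs, and those nearest to regions open only in P-MSCs 11.6% and 18.9%. These comparisons share their libraries.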

How the data were processed

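ATAC-seq was performed by the FAST-ATAC protocol and RNA-seq by Smart-seq2. Per the study's methods, ATAC-seq reads were trimmed with Trim Galore, aligned to mm10 with Bowtie, freed of duplicates with Picard, shifted for the transposase cut and cleared of blacklisted sites. The authors then called peaks with MACS2 on the pooled samples of each tissue, and deposited the fold enrichment, the -log10 q and the summit offset of each line. Expected counts and TPM per gene were made by the authors with RSEM and deposited as 1 table per library. Tool versions are not given in the sources used here.

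Peak lines with the same chromosome, start and end were merged into regions. The 1942 members, the gene lists and the motifs were chosen with earlier results of these data known. Summits were annotated with RefSeq curated transcripts on GRCm38 (mm10), with promoters reaching 1 kb to either side of a TSS, and motifs were counted within 100 bp of the strongest summit. This was the A-MSC summit, except the fBM-MSC summit in marrow-only regions and the P-MSC summit in regions open only in P-MSCs. Reads at a summit are the fold enrichment divided by its step, less 1 for the pseudocount, and 100.0% of values lay within 0.05 of a whole number. Intervals are exact at 95% and cover counting error only.

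Expected counts (19569650 to 40517739 per library) were rounded and tested with edgeR 4.0.16 (R 4.3.3; TMM, quasi-likelihood) over the 12509 genes with at least 1 CPM in at least 2 of 11 libraries, in 1 fit over the 4 tissues. Adjusted p-values (Benjamini-Hochberg) under 0.05 were called. A gene was higher in non-marrow MSCs when the mean of A-MSCs and P-MSCs exceeded the mean of the marrow sites. Alternatives were RLE factors, no filter, the replicate number as a block, DESeq2 1.42.0, limma 3.58.1 on log2(TPM + 1), each library left out, and other region rules. The fit was tested on simulated counts. Genes were named when nearest to the 12 strongest members, when among the 12 with the most members, when among the largest called changes with a member at the promoter (8 up, 4 down) or with 3 or more members (6 up, 4 down), or when called on a list and either nearest to a member or a GATA, RUNX, TEAD, AP-1 or NFI factor. vBM-MSC RNA-seq replicate 3 was not analysed here.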

Additional observations from a re-analysis of the deposited data

Results flagged for a closer look

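For 23 of the 67 tested named genes (34.3%, near the 30.9% of all genes) the difference from the marrow sites was not the same in A-MSCs and in P-MSCs, as the A-MSC minus P-MSC difference passed edgeR's test with Benjamini-Hochberg adjustment. The log2 difference was positive for Mrap (3.89), Nkain3 (3.14), Tcf21 (2.50), Gpr39 (2.16), Ppm1h (1.19), Bmper (1.08), F3 (1.05), Sparc (0.97), Btbd3 (0.95), Lmod1 (0.88), Gata3 (0.80) and Tnfrsf11b (0.73). It was negative for Wdr11 (-0.56), Mbnl1 (-0.59), Lamb1 (-0.62), Tead2 (-0.73), Tead4 (-1.14), Vcam1 (-1.25), Tcf4 (-1.28), Shb (-1.31), Fbxo5 (-1.87), Osr1 (-2.76) and Kdr (-2.79). Nkain3 and Tcf21 passed the filter on low counts only through the A-MSC libraries and Kdr only through non-marrow libraries, and Mrap reached the minimum of 1 CPM in no P-MSC library, so their differences are given as values and support nothing. The region at Mrap had 42 reads in A-MSCs and 20 in P-MSCs, and that at Fbxo5 15 and 112, so reads and RNA were higher in the same tissue. At Shb, with RNA higher in P-MSCs, the strongest region had 87 and 52 reads and the other 14 and 26. At Kdr, with RNA higher in P-MSCs, the stronger region had 45 and 39 reads and the other 22 and 30. The region reads have no replicates, so these pairs were not tested. Single outlying libraries were not tested in groups of 2 or 3, although fBM-MSC replicate 3 had 59.5 TPM of Fbln2 against 391 and 382 in the other fBM-MSC libraries, and 4.48 TPM of Gpr39 against 31.9 and 23.1.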

How the results depend on the processing

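Of 149 values of the 11 main results under alternatives, 125 stayed within a set tolerance and 24 moved. The tolerance was 1.5 times for counts, the 95% interval for shares and, for the median of 0.048, 0.101, its spread over the 6 non-marrow libraries. That width exceeds the median, which was 0.121 without vBM-MSC replicate 2, 0.085 without fBM-MSC replicate 1, 0.032 without P-MSC replicate 2 and 0.096 for regions within 50 kb of a TSS. Leaving out genes measured on 1 side only, an alternative chosen after seeing the data, gave 298 higher and 221 lower genes. With a -log10 q threshold of 20, 125 regions were left, with a promoter share of 0%, a GATA share of 58.4% and 31 higher and 12 lower nearest genes. With weak marrow lines allowed there were 6149 regions, with 5.24% at promoters, 30.7% with GATA letters and 702 higher and 656 lower genes. A promoter distance of 500 bp gave a share of 1.29%, and 50 bp windows, which are shorter, gave 23.1% with GATA, 26.0% with AP-1 and 20.3% with RUNX letters. Regions within 50 kb of a TSS had 154 lower genes, and those within 1 kb had 14 higher, 5 lower, 4 higher in each of 4 pairs, 2 higher and 6 lower in A-MSCs than P-MSCs, and a median of 0.600. With limma 137 genes were higher and 272 lower in A-MSCs than P-MSCs, and leaving out 1 library gave 131 to 238 genes higher and 127 to 211 lower.

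The 4 tissues came from the same 3 mice, but nothing ties the replicate numbers to a mouse, and same-numbered libraries did not deviate together (r -0.0363 to 0.114). With the replicate block 307 nearest genes were higher in place of 311, 298 of them shared, and the block ended the call of Junb (-0.45). The 311 became 308 with RLE factors, 309 without the filter, 322 with DESeq2, 323 with limma and 278 to 315 with 1 library left out. Nrp1 ranged from -0.24 to 0.03 (main value -0.12) with 1 library left out, with its sign turned without vBM-MSC replicate 2. Of 1072 values of 67 named genes, 1050 kept direction and call, 20 lost the call, 1 gained it and 1 turned; Vcam1 (0.36) lost its call without vBM-MSC replicate 2. The cause of these changes was not tested.

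The peak lists hold 1 pooled value per tissue, so differences between tissues in reads have no error beyond counting. Regions at 14 reads are 1 read from the threshold. The nearest gene need not be the gene a region acts on, and 360 regions lie over 100 kb from any TSS.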
